A study of Mus musculus with 2 samples.

Results

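The insulin-like growth factor (IGF) genes described in myoblasts and other cells of regenerating mouse muscle are 9 listed symbols: the ligand Igf1, the receptors Igf1r and Igf2r, the binding proteins Igfbp2, Igfbp3, Igfbp4, Igfbp5 and Igfbp7, and the receptor adaptor Irs1. These 9 were matched by symbol among the 32286 features of the count matrices and all had counts in both libraries. The study compared 2 single-cell RNA libraries made from muscle stem cells (satellite cells) of the biceps and the muscle labelled recto femoris, taken 5 days after injury. The animals carried 1 reporter allele at Pax3, a transcription factor of muscle progenitors (Pax3GFP/+, as the sample titles give it, although 1 label field reads wild-type). The GFP+ library holds the sorted cells with reporter signal and the GFP- library those without, so both groups share the genotype, the injury and the time. There is 1 library per group, no source used here gives the number of animals, and no uninjured or reporter-free muscle was analysed here.

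IGF-I is a secreted growth factor that acts on muscle cells through the tyrosine kinase receptor encoded by Igf1r, whose signal passes through adaptors such as Irs1 to the PI3K and AKT kinases. The product of Igf2r binds IGF-II and mannose 6-phosphate and carries them to lysosomes. The IGF-binding proteins hold IGFs in the extracellular space and can limit or prolong their action, whereas the product of Igfbp7 binds IGFs weakly and is known as a protein of vascular basement membranes.

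Igfbp5, Igfbp7 and Igfbp2 differed between cells with and without Myog, which encodes the differentiation factor myogenin, and the promoter windows of these 3 are shown for that reason. Myogenin and its relatives bind E-boxes, searched here as CANNTG, which reads the same on both strands. Each window runs from 250 bases before to 50 bases after a RefSeq transcription start (assembly GRCm38.p6, the mm10 build), and capitals mark the E-boxes. The Igfbp5 window lies at chr1:72874816-72875115 on the minus strand, the Igfbp7 window at chr5:77407996-77408295 on the minus strand, and the Igfbp2 window that holds the annotated gene start at chr1:72824230-72824529 on the plus strand.
Igfbp5: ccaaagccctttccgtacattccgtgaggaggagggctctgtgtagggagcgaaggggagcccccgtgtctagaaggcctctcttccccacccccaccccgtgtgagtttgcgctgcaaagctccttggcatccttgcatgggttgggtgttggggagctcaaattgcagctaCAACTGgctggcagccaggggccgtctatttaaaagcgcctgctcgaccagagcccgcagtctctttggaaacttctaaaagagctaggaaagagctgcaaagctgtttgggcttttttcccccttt
Igfbp7: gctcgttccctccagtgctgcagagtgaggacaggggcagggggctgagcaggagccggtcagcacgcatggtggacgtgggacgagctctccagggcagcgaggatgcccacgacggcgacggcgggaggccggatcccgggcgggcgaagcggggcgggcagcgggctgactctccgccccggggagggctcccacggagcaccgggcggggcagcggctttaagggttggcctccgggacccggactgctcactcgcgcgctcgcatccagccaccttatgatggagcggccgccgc
Igfbp2: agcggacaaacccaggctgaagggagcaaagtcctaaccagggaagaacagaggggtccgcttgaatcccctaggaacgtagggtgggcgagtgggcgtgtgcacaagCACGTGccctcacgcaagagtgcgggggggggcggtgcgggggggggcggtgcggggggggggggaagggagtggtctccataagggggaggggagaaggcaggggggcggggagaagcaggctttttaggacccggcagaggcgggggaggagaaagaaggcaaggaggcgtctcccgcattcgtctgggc
The Igfbp5 window held 1 E-box, which began 77 bases before the start, and the Igfbp2 window held 1, which began 142 bases before it. The RefSeq table has a further Igfbp2 start, whose window (chr1:72825137-72825436, not printed) held 2 E-boxes, which began 55 bases before and 20 bases after that start. The Igfbp7 window held none. Of 32851 windows of 300 bases in the same table, 72.3% held at least 1 match, so a match is common and describes these letters only. Igfbp2 and Igfbp5 are neighbours on chromosome 1 of mm10, with Igfbp2 at 72824503 to 72852474 on the plus strand, Igfbp5 at 72857932 to 72874884 on the minus strand, and 5457 bases between their 3′ ends.

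After removal of barcodes with fewer than 1000 transcripts (UMIs), fewer than 500 genes or more than 10% mitochondrial UMIs, 604 GFP+ and 2683 GFP- cells were kept, with medians of 18534.5 and 14663 UMIs and 2 barcodes in common between the libraries. Levels are given as CPM, the UMIs of a gene per 1000000 UMIs of the class. Pax3 gave 19.8 CPM in the GFP+ library and 4.95 in the GFP- library, in the direction of the sort labels. Cells were classed by marker UMIs: Rgs5-positive and Lyz2-positive cells had at least 3 UMIs of those genes, and all others were Myog-negative (399 GFP+ and 1791 GFP-) or Myog-positive (128 and 728), and likewise Mki67-negative (453 and 2035) or Mki67-positive (74 and 484), so the Mki67 split regroups the same cells. The summed myogenic markers (7 of 8 genes with UMIs) came to 2503 and 2287 CPM in Myog-negative cells, with Pax7 at 275 and 190, and the macrophage markers to 65.9 and 16.9. The 75 GFP+ and 53 GFP- Lyz2-positive cells carried 12 of 12 macrophage markers at 44867 and 37108 CPM in sum, and the 111 GFP- Rgs5-positive cells carried 9 of 9 mural (pericyte and vascular smooth muscle) markers at 13992. In the GFP+ library 2 cells were Rgs5-positive, which is too few to describe. No doublet caller was applied, and 0 cells had 3 UMIs of both Rgs5 and Lyz2.

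The 95% intervals in parentheses cover counting error only and leave out variation between cells and between animals. With 1 library per group no test between the libraries is possible. A gene counted as higher or lower in a comparison when its level was at least 20 CPM on 1 side and its ratio passed 2-fold, and the share of all genes that did so is given beside each count of members. Comparisons with Myog-negative cells share those cells, and are set side by side without a test of their likeness.

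**Figure D1:**
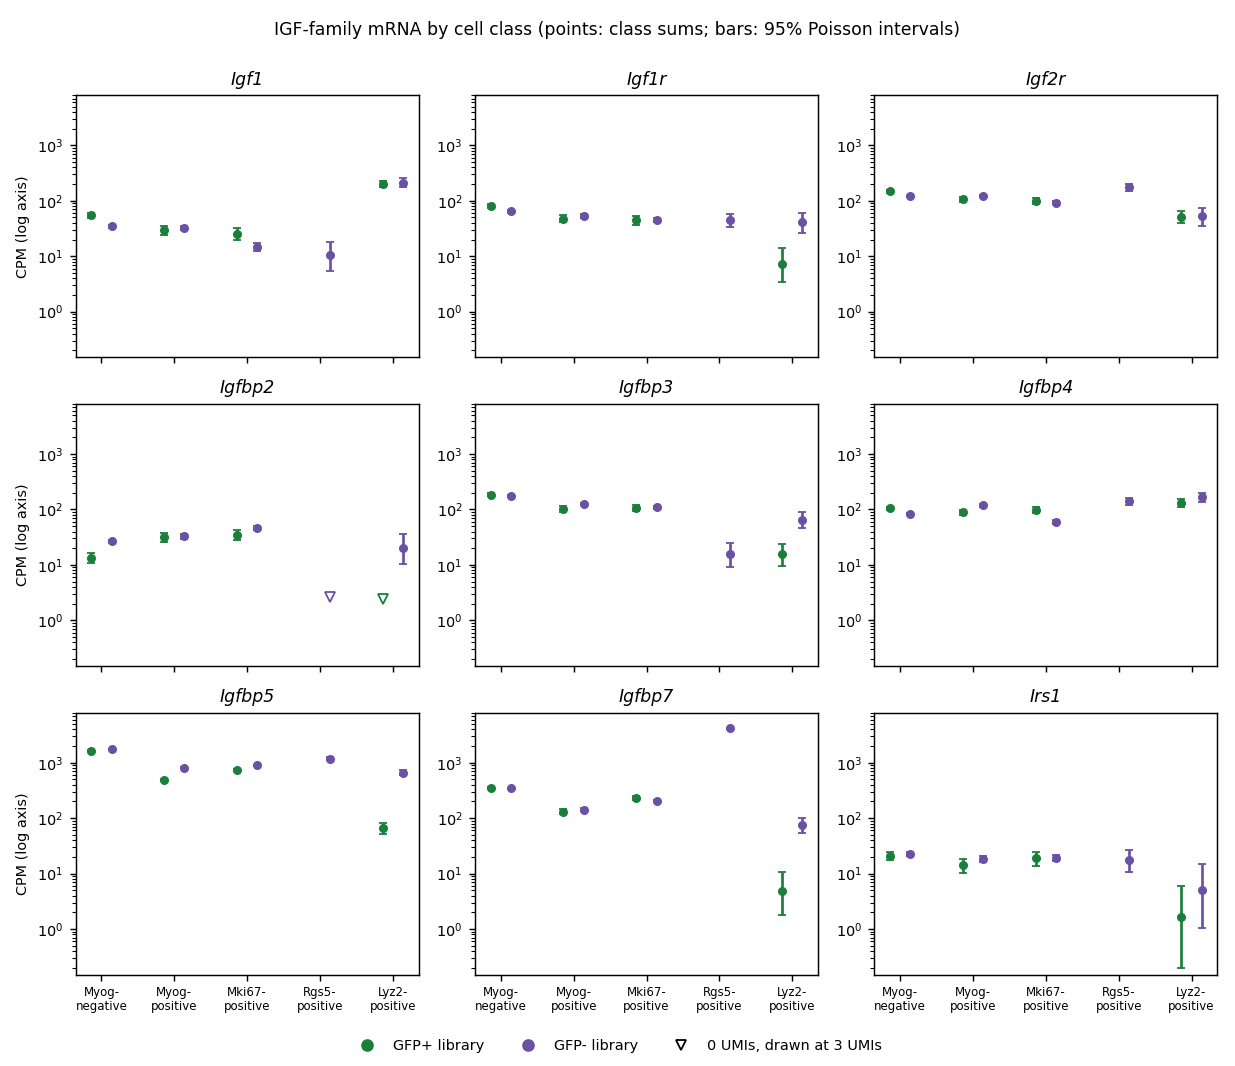
Level of each of the 9 genes, in CPM on a log axis, in 5 cell classes of the GFP+ library (green) and the GFP- library (purple); bars are 95% Poisson intervals, and open triangles mark classes with 0 UMIs, drawn at the level of 3 UMIs, and the 2 GFP+ Rgs5-positive cells are not drawn. Igf1 sits highest in Lyz2-positive cells, Igfbp7 in Rgs5-positive cells (4170) and Igfbp5 in Myog-negative cells (1638 and 1758).

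Igf1 mRNA was highest in the Lyz2-positive cells of both libraries. Its level there was 199.7 CPM (95% interval 175.4 to 226.4) in the GFP+ library and 213.5 (177.8 to 254.2) in the GFP- library, and these intervals overlap. In Myog-negative cells it was 54.7 (49.4 to 60.4) and 34.8 (32.7 to 37.1), in Myog-positive cells 29.5 and 32.5, and in Mki67-positive cells 25.1 and 14.7. The Lyz2-positive cells thus held 3.65 times the Myog-negative level in the GFP+ library (3.10 to 4.30) and 6.13 times in the GFP- library (5.05 to 7.38). At a depth thinned to 5000 UMIs per cell, 31 of 69 GFP+ and 21 of 42 GFP- Lyz2-positive cells had an Igf1 UMI, against 14.7% and 11.1% of Myog-negative cells and 2 of 84 GFP- Rgs5-positive cells. Unthinned, the shares were 61.3% and 62.3% against 23.6%, 21.8% and 7.21%, at median depths of 13571 and 8138 UMIs against 17924, 13937 and 8697. Where a single Lyz2 UMI defined the class the Igf1 ratios were 2.14 and 2.24, still past 2-fold. Free RNA could account for at most 23.2% and 33.2% of the UMIs of the Lyz2-positive cells, an upper limit set by their Myog UMIs. Those Myog UMIs lay in 4 of 75 GFP+ and 5 of 53 GFP- cells, so the limit is a loose one. Igf1 in empty droplets was 53.7 and 36.5 CPM. Igf1 was lowest in the GFP- Rgs5-positive cells, at 10.5 (5.41 to 18.3) from 12 UMIs, an interval that overlaps that of the Mki67-positive cells.

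Within the Myog-negative class Igf1 was concentrated in few cells. The 40 GFP+ cells with the most Igf1 held 82.0% of its Igf1 UMIs, and the 180 such GFP- cells held 78.2%, with up to 47 and 51 UMIs in 1 cell. Cells with at least 3 UMIs of the fibro-adipogenic markers Dcn, Lum, Dpt and Pdgfra made up 15.0% of GFP+ Myog-negative cells (60 cells) and 3.57% of GFP- ones (64 cells). The list of 6 such markers also holds Col1a1 and Ly6a, which were not used to mark cells. In GFP+ and GFP- Myog-negative cells Col1a1 was 808 and 371 CPM, and Ly6a 20.7 and 22.1. Ly6a was higher in Lyz2-positive cells, at 147 and 286, so the name rests on 4 of the 6 genes. The cells marked by those 4 are described next. The marked cells held 39.1% and 17.4% of the Igf1 UMIs, at 192 and 226 CPM, against 37.5 and 29.6 in the remaining cells. The sum of Pax7, Myf5, Myod1, Cdh15 and Des stood at 1982 CPM in cells with the markers and 2024 without them in the GFP+ library. In the GFP- library it stood at 1685 and 1810. A sum over cells does not show whether single cells carry both sets of markers. Igf1 was 1.57-fold (1.39 to 1.77) the GFP- level in GFP+ Myog-negative cells, and 1.27-fold without the fibro-adipogenic-marked cells, a set defined after these values were seen. The marked cells had fewer UMIs than the rest, with medians of 10680 against 18809 in GFP+ and 11301 against 14038 in GFP- cells. What part fibro-adipogenic cells have in the Igf1 level was not tested.

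The receptor gene Igf1r was highest in Myog-negative cells of both libraries, at 81.3 CPM (74.9 to 88.2) in GFP+ cells and 64.3 (61.4 to 67.4) in GFP- cells. It was 47.6 and 53.4 in Myog-positive cells and 45.2 and 45.6 in Mki67-positive cells, so the cycling and the Myog-positive cells of both libraries stood below the Myog-negative ones. The Myog-positive to Myog-negative ratio was 0.585 (0.490 to 0.697) in the GFP+ library and 0.831 (0.763 to 0.904) in the GFP- library, neither past 2-fold. Lyz2-positive cells gave 7.37 (3.37 to 14.0) from 9 UMIs in GFP+ and 40.7 (26.1 to 60.5) from 24 UMIs in GFP-. Of those 24 UMIs, 17 came from 10 cells that also carried myogenic markers, and the other cells gave 20.7.

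Igf2r varied less among the myogenic classes. Its levels were 149.9 (141.1 to 159.1) in Myog-negative, 107.6 in Myog-positive and 99.4 in Mki67-positive cells of the GFP+ library, and 119.7 (115.6 to 123.8), 120.5 and 92.6 in those of the GFP- library. In the GFP- library the Myog-negative and Myog-positive intervals overlapped, with a ratio of 1.01 (0.950 to 1.07), whereas in the GFP+ library the ratio was 0.718 (0.636 to 0.808). Rgs5-positive cells were highest, at 174.4 (151.1 to 200.3), and Lyz2-positive cells lowest, at 51.6 and 52.5. Igf2r lies on the minus strand of chromosome 17 (mm10 12682406 to 12769664) and is overlapped on the opposite strand by Airn, a non-coding RNA gene counted separately with 451 GFP+ and 2178 GFP- UMIs. No source used here says whether reads were counted by strand.

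Irs1, which couples the receptor to PI3K, was low in every class. It gave 20.7 (17.5 to 24.3) and 22.6 (20.9 to 24.5) CPM in GFP+ and GFP- Myog-negative cells, 14.1 and 18.5 in Myog-positive, and 18.9 and 18.9 in Mki67-positive cells. Neighbouring classes overlapped in their intervals except that GFP+ Lyz2-positive cells, at 1.64 from 2 UMIs, lay below the myogenic classes. In the GFP- library the lowest neighbours overlapped, with 17.4 in Rgs5-positive and 5.08 in Lyz2-positive cells. Against Myog-negative cells the GFP- Lyz2-positive cells were lower as well, with a ratio of 0.225 (0.0462 to 0.660) from 3 UMIs.

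Igfbp5 mRNA was most abundant in Myog-negative cells and stepped down over the other myogenic classes. It stood at 1638 CPM (1609 to 1668) in GFP+ and 1758 (1743 to 1774) in GFP- Myog-negative cells, at 739 and 907 in Mki67-positive, and at 491 (468 to 515) and 821 (807 to 836) in Myog-positive cells. No 2 neighbouring classes overlapped in either library. Split both ways, cells with neither marker had 1790 (GFP+) and 2060 (GFP-), Mki67-positive cells without Myog 1006 and 1025, Myog-positive cells without Mki67 528 and 878, and cells with both 415 and 672. Thinned to 5000 UMIs, 80.2% of GFP+ and 92.0% of GFP- Myog-negative cells had an Igfbp5 UMI (84.2% and 94.7% unthinned), against 52.1% and 69.0% of Myog-positive cells (63.3% and 76.5%). In Lyz2-positive cells the thinned shares were 7.25% and 19.0% (12.0% and 17.0% unthinned). Rgs5-positive cells of the GFP- library also had much Igfbp5, 1185 (1123 to 1250).

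Igfbp7 followed Igfbp5 within the myogenic cells and parted from it in the mural class. Its levels were 345 (332 to 359) and 346 (340 to 353) in GFP+ and GFP- Myog-negative cells, 229 and 203 in Mki67-positive, and 131 (119 to 144) and 143 (137 to 150) in Myog-positive cells, with no overlap between neighbouring classes. In the 111 Rgs5-positive cells it reached 4170 (4053 to 4290), with a median of 33 UMIs per cell and at least 1 UMI in 108 cells. That was 12.0 times the Myog-negative level (11.6 to 12.5), and 4.51 times where a single Rgs5 UMI defined the class. The free RNA of empty droplets (1 to 100 UMIs) held Igfbp7 at 306 CPM in that library, and at most 0.835% of the Rgs5-positive UMIs could be assigned to it. In Myog-negative GFP- cells, 7 cells with endothelial markers and 0 UMIs of the 5 myogenic genes held 504 of 9603 Igfbp7 UMIs, 5742 CPM.

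Across the Myog split, 1 of 9 members was higher and 2 were lower past 2-fold in the GFP+ library, where 4.37% of 5969 genes were higher and 6.87% lower. In the GFP- library 0 were higher and 2 lower, where 3.33% of 5938 genes were higher and 2.71% lower. Igfbp5 and Igfbp7 were the 2 lower genes in both. Igfbp5 in Myog-positive cells was 0.300 (0.285 to 0.315) of the Myog-negative level in the GFP+ library and 0.467 (0.458 to 0.476) in the GFP- library. Igfbp7 was 0.380 (0.343 to 0.420) and 0.414 (0.395 to 0.434). The median log2 ratio of the 9 members was -0.77 and -0.27, against -0.02 and -0.03 over all genes compared. At a mitochondrial limit of 5% the Igfbp5 ratio of the GFP- library was 0.525, no longer past 2-fold. Where 3 Myog UMIs defined the class the differences were larger, with ratios of 0.198 and 0.315 for Igfbp5 and 0.170 and 0.239 for Igfbp7.

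Graded by Myog, both genes stepped down. With 0 Myog UMIs, up to 1, 1 to 5, 5 to 20 and over 20 Myog UMIs per 10000, Igfbp5 in the GFP- library was 1758, 1434, 1020, 882 and 244 CPM, in 1791, 179, 144, 127 and 278 cells. Igfbp7 in the same bins was 346, 277, 162, 109 and 50.5. Each bin lay below the one before it, beyond the intervals, for both genes. In the GFP+ library Igfbp5 was 1638, 863 and 550 in the first 3 bins and 176 in the last, and Igfbp7 345, 273, 98.3 and 49.5; the bin of 5 to 20 holds 16 GFP+ cells and is left aside. Pax7, the satellite-cell factor, went from 190 to 13.5 over the GFP- bins, and embryonic myosin Myh3 from 1.44 to 391.

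**Figure D2:**
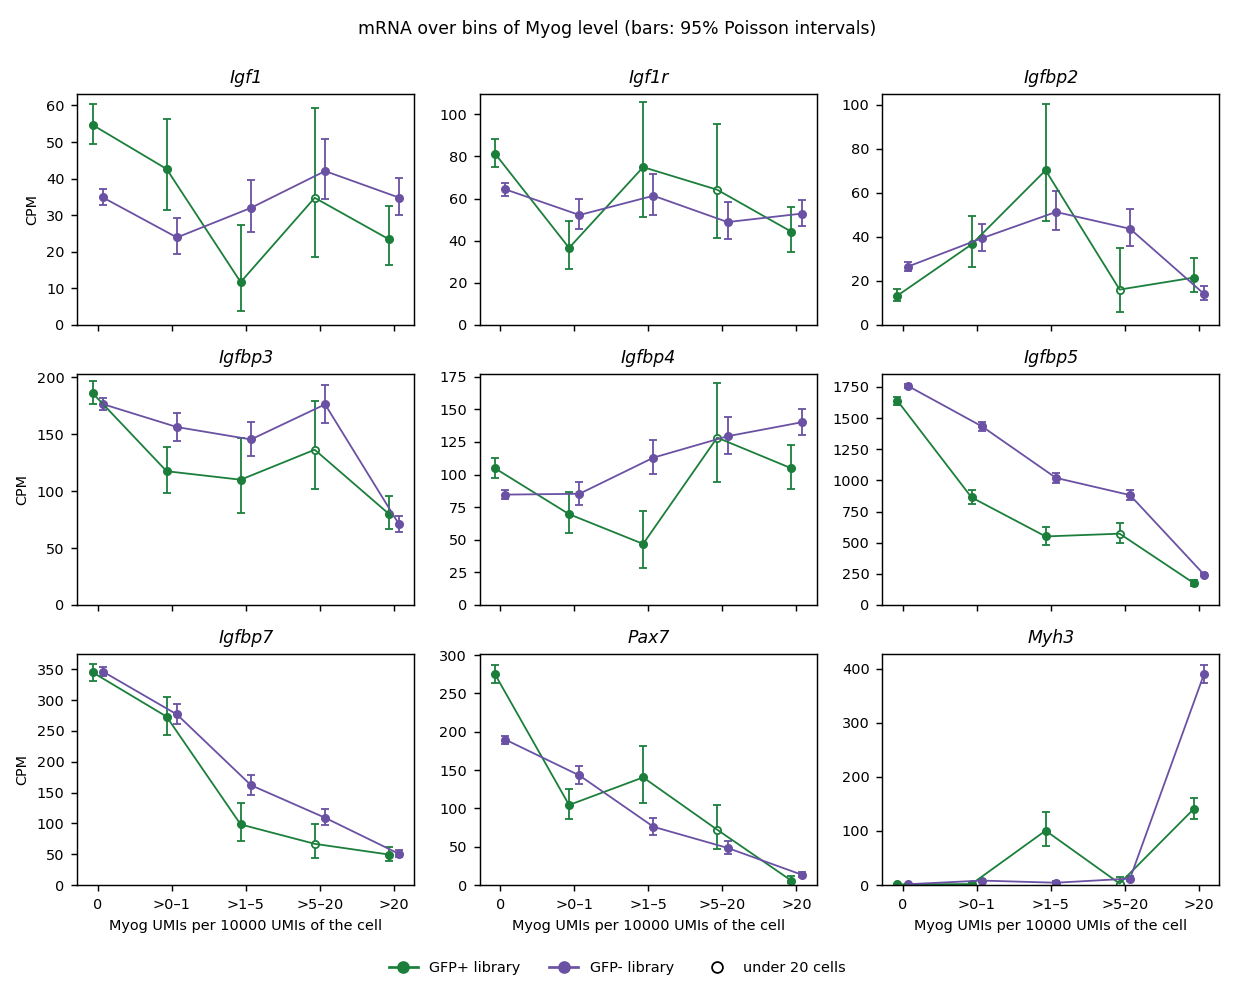
Levels in CPM (linear axes from 0) over 5 bins of Myog UMIs per 10000 UMIs of the cell, for 7 members and for Pax7 and Myh3 as reference genes; green is the GFP+ and purple the GFP- library, bars are 95% Poisson intervals, and open circles mark a bin of 16 cells. In the GFP- library Igfbp5 and Igfbp7 step down over all bins (1758 to 244 and 346 to 50.5), Igfbp2 is highest in the bin of 1 to 5 (51.3) and Igfbp3 is lowest in the last (70.7).

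Igfbp2 had a different course. In the GFP- library it was 26.5 (24.6 to 28.5) CPM without Myog, 39.4 and 51.3 (42.9 to 60.8) in the next bins, 43.7 in the fourth and 14.1 (11.1 to 17.6) in cells with the most Myog, so that the middle of the range was high and the end low. In the GFP+ library it was 13.3 (10.8 to 16.3), 36.5 and 70.2 (47.4 to 100) in the first 3 bins and 21.5 (14.8 to 30.2) in the last. Over the whole class, Igfbp2 in GFP+ Myog-positive cells was 2.39-fold (1.80 to 3.17) the Myog-negative level, from 111 and 96 UMIs, and 1.24-fold (1.10 to 1.39) in GFP- cells, from 484 and 734. The GFP+ ratio was 1.47, under 2-fold, where single UMIs of Rgs5 or Lyz2 removed cells from the class. One GFP+ Myog-positive cell with endothelial markers held 16 of the 111 UMIs.

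Cycling cells had more Igfbp2 than Mki67-negative cells in both libraries. Its level was 34.6 (27.7 to 42.6) in GFP+ and 47.1 (43.3 to 51.1) in GFP- Mki67-positive cells, against 14.6 (12.1 to 17.5) and 21.3 (19.6 to 23.0) in Mki67-negative cells. The ratios were 2.37 (1.78 to 3.14) and 2.22 (1.98 to 2.48). The levels were split by both markers: in the GFP- library Mki67-positive cells had 45.5 without Myog and 50.3 with it, and Mki67-negative cells 18.6 and 26.1. The GFP+ values were 27.2 and 43.5 against 9.99 and 26.1. Among GFP+ Myog-positive cells the intervals overlapped (32.3 to 57.4 and 20.0 to 33.5), and 1 of the 27 Mki67-positive cells held 23 of their 50 UMIs. Mki67-positive cells were deeper (medians of 29867 and 22322 UMIs against 17847 and 14007), and after thinning to 5000 UMIs 16.7% (13.4% to 20.3%) of GFP- Mki67-positive cells had an Igfbp2 UMI against 5.55% (4.56% to 6.68%) of Mki67-negative cells (33.9% and 13.0% unthinned). In the GFP+ library the thinned shares, 6.94% and 2.53%, had overlapping intervals. Igfbp2 gave 0 UMIs in GFP- Rgs5-positive cells, a ratio to Myog-negative cells of 0 with an interval up to 0.122. It also gave 0 UMIs in GFP+ Lyz2-positive cells, with an interval of the ratio up to 0.231. A floor of 3 UMIs for the class would put these levels 10.1-fold and 5.43-fold lower than in Myog-negative cells. These folds are not lower limits of the difference. In both classes Igfbp2 was thus lower than in Myog-negative cells. For Lyz2-positive cells that direction turned where a single Lyz2 or Rgs5 UMI defined the class, with Igfbp2 ratios of 1.75 in GFP+ and 2.03 in GFP- cells. So defined, the class also takes in cells that count as Myog-negative or Myog-positive at the limit of 3 UMIs. After thinning, 0 of 84 GFP- Rgs5-positive and 0 of 69 GFP+ Lyz2-positive cells had an Igfbp2 UMI. A floor of 3 cells would be 3.57% and 4.35% of them, which is not an upper limit.

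Igf1 went the other way in cycling cells. Its Mki67-positive level was 25.1 (19.4 to 32.1) against 53.2 in Mki67-negative GFP+ cells and 14.7 (12.6 to 17.0) against 41.8 in GFP- cells, ratios of 0.473 (0.358 to 0.616) and 0.351 (0.298 to 0.411). Of the 64 GFP+ UMIs, 95.3% lay in 8 of 74 cells, and without the fibro-adipogenic-marked cells the GFP+ ratio was 0.0742. Igfbp2 and Igf1 were the only members past 2-fold in this comparison. That is 1 of 8 higher and 1 lower in the GFP+ library, where Irs1 was under 20 CPM, and 1 of 9 higher and 1 lower in the GFP- library. Of all genes compared, 6.3% and 2.93% of 6033 were higher and lower in the GFP+ library and 5.45% and 2.21% of 6052 in the GFP- library. Igfbp5 stood at 0.518 and 0.552 of the Mki67-negative level, just inside the limit, and at 0.426 and 0.477 where 3 Mki67 UMIs defined the class.

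**Figure D3:**
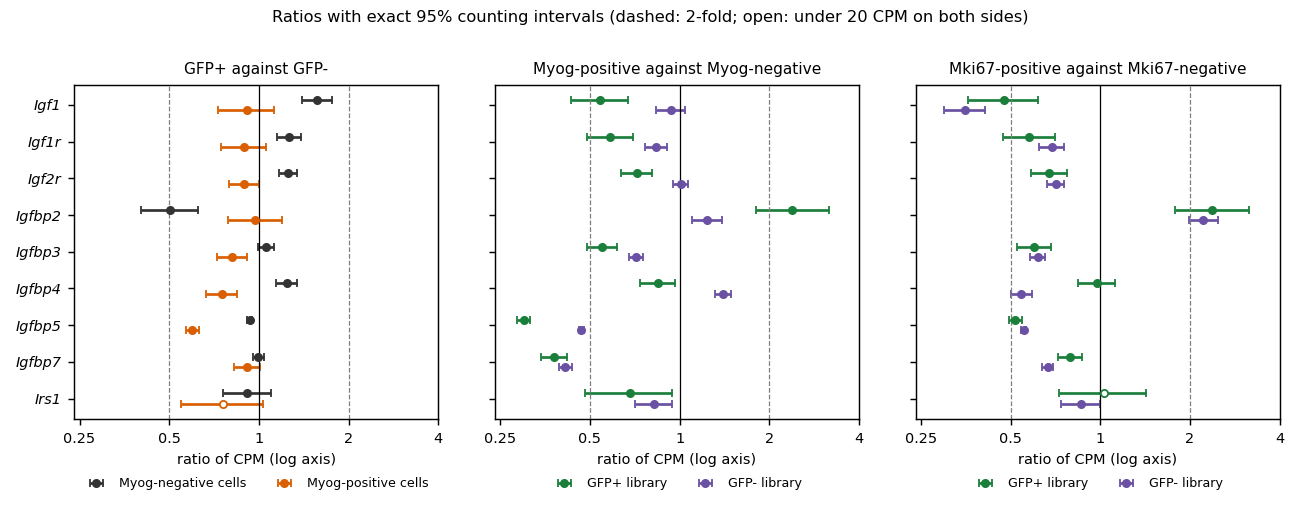
Ratios of CPM with exact 95% counting intervals on a log axis, for GFP+ against GFP- (left, Myog-negative cells black and Myog-positive cells orange), Myog-positive against Myog-negative (middle) and Mki67-positive against Mki67-negative cells (right), the GFP+ library in green and the GFP- library in purple; dashed lines mark 2-fold and open circles genes under 20 CPM on both sides. Igfbp5 and Igfbp7 lie left of 0.5 in the middle panel, and Igfbp2 lies right of 2 in the right panel in both libraries.

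Igfbp3, the main carrier of IGFs in blood, was highest in the Myog-negative cells, at 186 (176 to 196) in GFP+ and 176 (171 to 181) in GFP-. It was 102 and 126 in Myog-positive and 105 and 110 in Mki67-positive cells. The ratios to the Myog-negative or Mki67-negative cells were between 0.549 and 0.712, none past 2-fold. Over the Myog bins of the GFP- library it stayed between 145 and 176 until the last bin, where it was 70.7 (63.8 to 78.0); the GFP+ value there was 80.1. Rgs5-positive cells had 15.7 (9.30 to 24.8), a ratio of 0.0890 (0.0527 to 0.141).

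Igfbp4 varied little between the classes of the GFP+ library and more between those of the GFP- library. Its GFP+ levels were 104.8 (97.4 to 112.5) in Myog-negative, 88.6 (79.0 to 99.1) in Myog-positive, 97.4 in Mki67-positive and 131.8 in Lyz2-positive cells, and each overlapped with its neighbour in rank. Its GFP- levels were 84.6 (81.2 to 88.1), 118.2 (112.7 to 123.8), 60.0, and 166.0 in the same classes, with 140.4 in Rgs5-positive cells. The Myog-positive to Myog-negative ratio was 0.846 (0.739 to 0.967) in the GFP+ library and 1.40 (1.31 to 1.49) in the GFP- library, on opposite sides of 1. Fibro-adipogenic-marked Myog-negative cells had 257 (GFP+) and 293 (GFP-) CPM and held 27.3% and 9.29% of the class's Igfbp4. Without them, the Myog-negative levels were 85.7 and 78.9 and the Myog-positive ones 91.4 and 119, so that Myog-positive cells were higher in both libraries, in the GFP+ library with overlapping intervals. In the GFP- library Igfbp4 was 84.6, 85.2, 113.0, 129.4 and 140.1 (130.4 to 150.3) over the Myog bins, higher from the third bin on than without Myog. Beside it, Mki67-positive cells of the GFP- library had 60.0 against 110.8 CPM in Mki67-negative ones (ratio 0.542), and those of the GFP+ library 97.4 against 100.2 (ratio 0.973, 0.840 to 1.12). The GFP+ ratio was 0.595 where 3 Mki67 UMIs defined the class, and 1 cell held 69 of the 248 UMIs of the GFP+ Mki67-positive cells.

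Between the sorted libraries, no member differed past 2-fold. Over all kept cells 0 of 9 were higher and 0 lower in GFP+, where 3.8% of 6007 genes were higher and 0.516% lower. In Myog-negative cells the counts were again 0 and 0 of 9, with 2.08% and 0.494% of 5876 genes. In Myog-positive cells 0 of the 8 members above 20 CPM were higher or lower, with 1.32% and 0.51% of 5688 genes. Within that limit, Igfbp2 of Myog-negative cells came nearest, at 13.3 in GFP+ against 26.5 in GFP- cells, a ratio of 0.503 (0.403 to 0.623). It was 0.422 at a mitochondrial limit of 5%, past 2-fold. In Myog-positive cells Igfbp2 was 31.8 and 32.7, with overlapping intervals. Igf1r (1.26, 1.15 to 1.39), Igf2r (1.25, 1.17 to 1.34) and Igfbp4 (1.24, 1.14 to 1.34) were above 1 in Myog-negative cells and Igfbp7 was 0.997 (0.953 to 1.04). In Myog-positive cells Igfbp5 was 0.598 (0.568 to 0.629) and Igfbp4 0.750 (0.662 to 0.847). Over all kept cells Igfbp7 was 247 in GFP+ against 374 in GFP-, a ratio of 0.661 (0.635 to 0.687), beside 2 Rgs5-positive cells in the GFP+ and 111 in the GFP- library. Over all kept cells Igf1 was 61.8 against 35.8, a ratio of 1.73 (1.58 to 1.89), beside 12.4% and 1.98% of Lyz2-positive cells. Since the 2 libraries are 1 sort each, a difference of the sort and a difference of the library cannot be told apart.

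Set against Myog-negative cells of the GFP- library, the Rgs5-positive cells had 1 of 9 members higher (Igfbp7) and 3 lower (Igf1, Igfbp2 and Igfbp3), where 18.1% of 6817 genes were higher and 7.53% lower. The Rgs5-positive cells had fewer UMIs (median 8697 against 13937). The 3 lower calls were not kept where a single Rgs5 UMI defined the class, with ratios of 0.629 for Igf1, 0.710 for Igfbp2 and 0.606 for Igfbp3. Cells with any Rgs5 UMI numbered 239, against 111 in the class. At the limit of 3 UMIs, 89 of them counted as Myog-negative and 38 as Myog-positive. The Lyz2-positive cells of the GFP+ library had 1 of 8 members higher (Igf1) and 6 lower (Igf1r, Igf2r, Igfbp3, Igfbp5, Igfbp7 and Irs1), where 20.8% of 6683 genes were higher and 25.8% lower. Those of the GFP- library had 1 of 9 higher (Igf1) and 5 lower (Igf2r, Igfbp3, Igfbp5, Igfbp7 and Irs1), where 20.3% of 6896 genes were higher and 19.5% lower. The lower calls depended on the limit for Lyz2, and a single UMI also brought in cells of the Myog classes. Cells with any Lyz2 UMI numbered 127 in GFP+ and 173 in GFP-, against 75 and 53 in the class. At the limit of 3 UMIs, 34 and 76 of them counted as Myog-negative and 18 and 38 as Myog-positive. Where a single UMI defined the class, Igf2r (0.590) and Irs1 (0.541) were no longer past 2-fold in the GFP+ library. None of the 5 lower genes of the GFP- library was, with ratios of 0.693 for Igf2r, 0.670 for Igfbp3, 0.677 for Igfbp5, 0.551 for Igfbp7 and 0.848 for Irs1.

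The low binding-protein levels of Lyz2-positive cells came from few cells. Cells with a Myog UMI or at least 2 UMIs of Pax7, Myf5, Myod1, Cdh15 and Des numbered 7 of 75 in the GFP+ and 10 of 53 in the GFP- library. They held 75 of 81 and 392 of 393 Igfbp5 UMIs, 5 of 6 and 44 of 44 Igfbp7 UMIs, and 18 of 19 and 36 of 38 Igfbp3 UMIs. Without them Igfbp5 was 6.12 and 2.95 CPM, against 1638 and 1758 in Myog-negative cells. The 12 Igfbp2 UMIs of the GFP- class all lay in such cells. Igf1 and Igfbp4 behaved otherwise, at 206 and 236 (Igf1) and 133 and 183 (Igfbp4) without these cells, both a little above the levels with them. The same rule took 89 of 111 Rgs5-positive cells, and Igfbp7 in the remaining 22 was 5200. Des, also a gene of mural cells, gave 646 UMIs in that class. Cdh15 gave 32, Myf5 27, Pax7 24, Myod1 12 and Myog 7. Which gene brought each cell under the rule was not tested.

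**Figure D4:**
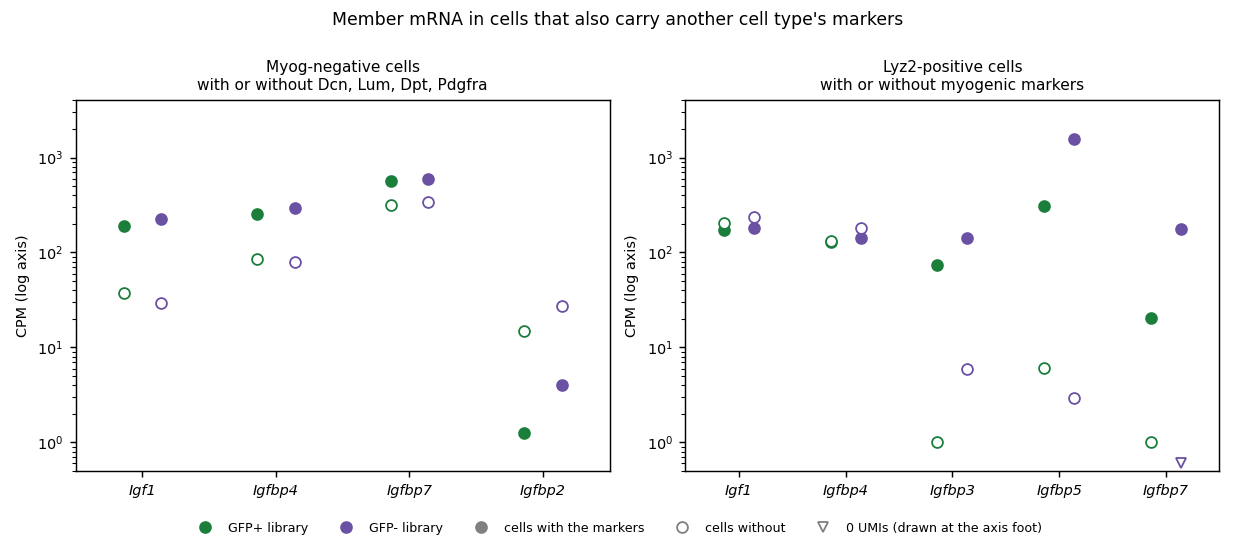
Levels in CPM (log axis) in Myog-negative cells with (filled) or without (open) fibro-adipogenic markers (left), and in Lyz2-positive cells with or without myogenic markers (right), for the GFP+ (green) and GFP- (purple) library; the triangle marks 0 UMIs. In the left panel Igf1 (192 and 226) and Igfbp4 (257 and 293) are high in marked cells, and in the right panel Igfbp5 is low in unmarked cells (6.12 and 2.95).

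Of 58 other genes of the pathway (other ligands and receptors, adaptors, kinases and phosphatases, and the proteases that cut binding proteins), 27 to 35 reached 20 CPM in a comparison. Between the libraries 1 of 30 was higher over all kept cells, the lysosomal protease Ctsd (420 in GFP+ against 195, ratio 2.16, 2.08 to 2.23), which was far above its Myog-negative level in Lyz2-positive cells (2902 and 3556). In Myog-negative and in Myog-positive cells 0 of 31 and 0 of 27 were past 2-fold. Of all genes compared, 3.8% were higher and 0.516% lower over all kept cells. The shares were 2.08% and 0.494% in Myog-negative and 1.32% and 0.51% in Myog-positive cells. The ligand Igf2 was 209 in GFP+ and 137 in GFP- Myog-negative cells, a ratio of 1.53 (1.44 to 1.62).

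Across the Myog split 1 of 30 was higher and 4 lower in the GFP+ library, where 4.37% of all genes were higher and 6.87% lower. In the GFP- library 1 of 31 was higher and 1 lower, where 3.33% of all genes were higher and 2.71% lower. The higher pathway gene in both libraries was Inppl1, which encodes a phosphatase of the PI3K product PIP3. It stood at 107 and 104 CPM in Myog-positive against 26.8 and 29.9 in Myog-negative cells, ratios of 3.99 (3.35 to 4.78) and 3.49 (3.21 to 3.80). Adamts1, a secreted metalloprotease, was lower in both, at 0.382 (0.294 to 0.489) and 0.358 (0.311 to 0.412). Htra1, a serine protease that cuts binding proteins, was lower in the GFP+ library (0.237), as were the feedback inhibitor Socs3 (0.473) and Ddit4, an inhibitor of mTORC1 (0.482). In Mki67-positive cells the adaptor Irs2 was lower in the GFP+ library (22.4 against 46.9, ratio 0.478), 1 of 29. Igf2 was lower in the GFP- library (68.7 against 145.5, ratio 0.472, 0.438 to 0.509), 1 of 30. In both libraries 0 were higher. Of all genes compared, 6.3% were higher and 2.93% lower in the GFP+ library, and 5.45% and 2.21% in the GFP- library.

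In Rgs5-positive cells 12 of 34 pathway genes were higher and 6 lower, where 18.1% of all genes compared were higher and 7.53% lower. The largest were Htra1 (410 against 14.1, ratio 29.0), Adamts1 (1120 against 45.0, ratio 24.9), Igfbp6 (1.74 against 31.4, from 2 UMIs, ratio 0.0556, 0.00672 to 0.201) and Stc1, an inhibitor of the protease PAPP-A (54.1 against 5.30, ratio 10.2). In Lyz2-positive cells of the GFP+ library 4 of 32 were higher and 12 lower, where 20.8% of all genes compared were higher and 25.8% lower. In those of the GFP- library 7 of 35 were higher and 7 lower, near the shares of all genes, 20.3% and 19.5%. Ctsd led the higher genes, with ratios of 23.8 and 25.5, followed by the PI3K subunit Pik3cb at 14.9 and 15.0. The lower genes of the GFP+ library farthest from 1 were Adamts1 (1 UMI, ratio 0.0145, 0.000367 to 0.0814), Htra1 (1 UMI, ratio 0.0398, 0.00100 to 0.225) and Igf2 (0.0548), and in the GFP- library Igfbp6 (3 UMIs, ratio 0.162, 0.0333 to 0.475) and the adaptor Grb10 (0.205).

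The genes whose profiles were most like those of the members were named from 10019 genes over 11 profiles (the 4 Myog by Mki67 combinations and the Lyz2-positive cells of both libraries, and the Rgs5-positive cells of the GFP- library), by Pearson correlation of log2(CPM + 1). These are descriptions without a test, and the profiles share libraries and depth. The Irs1 profile is lowest in Lyz2-positive cells, at 1.64 CPM from 2 UMIs in GFP+ and 5.08 from 3 UMIs in GFP-. A high correlation with Irs1 thus need not hold within the myogenic cells. Nearest to Igfbp5 were the laminin gene Lama2 (0.99), Fibin (0.98) and the glypican Gpc3 (0.98), then Yipf5 (0.97) and Antxr1 (0.97). Nearest to Igfbp7 were Lhfp, Adamts2, Adamts4 and the basement-membrane gene Nid1 (each 0.99) and Adamts1 (0.98). Nearest to Igf1 were Il4ra (0.97), which encodes the interleukin 4 receptor, Scamp2, Tgif1 and Ptpre (each 0.96) and Zbp1 (0.95). For Igfbp2 they were Pde7a and Taf6l (each 0.97), Wasf1 and Ivns1abp (each 0.95) and Nup210 (0.94), and for Igf1r Ltbp3 (0.99) and Cul7, Evc2, Ctnnd1 (each 0.98) and Tmem246 (0.97). For Igf2r they were Mapk8ip1 (0.98), Rnf122, Rcan2 and Slc25a23 (each 0.97) and Acadvl (0.96), for Igfbp3 Usp29, Pde1c and Htra3 (each 0.98) and Asb5 and Ptgfrn (each 0.97), and for Irs1 Ube2e2, Plcb3, Pakap, P3h4 and Ift81 (each 0.99). Igfbp4 had no close neighbour: the first was Edem2 (0.89), then Cbfa2t3 (0.85), Creb3 (0.84), Anks1 and Atg2a (each 0.83).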

How the data were processed

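Counts are the deposited raw matrices, made by the authors with Cell Ranger per the submitters' processing notes (release 4 per the file headers, mm10), with all barcodes listed; Seurat, also named there, left no output used here. No source used here gives the aligner settings or the strand rule. Kept cells had at least 1000 UMIs, 500 genes and at most 10% mitochondrial UMIs. UMIs were summed by class with Python 3.11.15, numpy 2.4.6, scipy 1.17.1 and pandas 2.3.3 and divided by the class total, as CPM. Intervals are 95%: Poisson for levels, exact Clopper-Pearson for shares, and conditional binomial for ratios. The scripts were tested on simulated data. The members and lists were chosen with earlier results of these data known. All 9 members are named, with other pathway genes past 2-fold (at most the 4 largest per comparison) and the 5 nearest profiles of each member. Alternatives were other class, quality and fold limits, TMM scaling (edgeR 4.0.16), per-cell means and subtraction of free RNA; 3 more, which left out cells with markers of another type, were chosen after seeing the data. RefSeq promoter windows matched all 9 members; gene positions come from GENCODE.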

Additional observations from a re-analysis of the deposited data

Results flagged for a closer look

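Igfbp4 lay on opposite sides of 1 across the Myog split in the 2 libraries: Myog-positive cells had 0.846 of the Myog-negative level in the GFP+ library and 1.40 in the GFP- library. Put the other way, GFP+ cells had 1.24 times the GFP- level of Igfbp4 among Myog-negative cells and 0.750 among Myog-positive cells. Igf2r did so between the libraries only, with 1.25 among Myog-negative and 0.893 (0.797 to 0.999) among Myog-positive cells. The latter ratio was 0.993 as a mean over cells. Across the Myog split Igf2r was 0.718 in the GFP+ library and 1.01 (0.950 to 1.07) in the GFP- library. Each of these differences rests on 1 library per group and was not tested. Without cells carrying fibro-adipogenic markers, Igfbp4 was 85.7 CPM in Myog-negative and 91.4 in Myog-positive GFP+ cells, and 78.9 and 119 in GFP- cells. For Igf2r the values without them were 141 and 108 in GFP+ cells and 118 and 120 in GFP- cells.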

How the results depend on the processing

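No paired analysis was possible because each group has 1 library. No ratio past 2-fold at 20 CPM or more crossed 1. Igfbp2 of GFP+ Lyz2-positive cells, under 20 CPM on both sides and at 0 UMIs, did so at a single Lyz2 or Rgs5 UMI (1.75). The Igfbp4 ratio of the GFP+ Myog split was above 1 in 2 of 13 alternatives, up to 1.07. Of 159 recomputed counts of members past 2-fold, 146 stayed within 1.5 times the first count and 13 moved. At a single UMI of Rgs5 or Lyz2 the Rgs5-positive comparison gave 1 member and the Lyz2-positive one of the GFP- library 2. At 10 UMIs, and at a 5% mitochondrial limit, GFP+ against GFP- Myog-negative cells gave 1 (Igfbp2). The 5% limit left 1 (Igfbp7) in the GFP- Myog split. At 3 UMIs of Myog the GFP+ Myog split gave 5. Per-cell means gave 1 (Igfbp7) over all kept cells. At 1.5-fold, GFP+ against GFP- gave 3 over all kept, 2 in Myog-negative and 1 in Myog-positive cells, the GFP+ Myog split 6, and the Mki67 split 5 (GFP+) and 6 (GFP-). The share of all genes past the limit was not computed at these alternative settings. The counts there thus show only how the calls depend on the settings. Of 1161 member ratios 956 stayed inside their 95% interval and 205 did not. Subtraction of free RNA gave no value for all kept cells. Shares of cells with a UMI depend on depth: 110 of 162 moved. Levels under about 20 CPM, such as Irs1, are limited by counts.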
